A study of Mus musculus with 6 samples.

Results

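Macrophage genes were measured in whole kidneys of mice on an adenine-enriched diet and on a standard diet. The set holds 10 genes, taken by symbol from the 40993 entries of the deposited table: Emr1 (the older symbol of Adgre1), Cd68, Csf1r, Lyz2, Ms4a7, Mrc1, Cd163, Trem2, Tyrobp and Gpnmb. All 10 were found, each as 1 entry. The mice were C57BL/6 and 2 months old, with 3 samples on the adenine-enriched diet (adenine 1 to 3) and 3 on the standard diet (standard 1 to 3), and the sources used here give no dose or duration of adenine feeding. Adenine feeding is a widely used model of tubular injury by crystals, and the samples are of whole kidney, so no cell was isolated. Levels are FPKM, fragment counts scaled to the length of the transcript and to the mapped fragments of the library. Whether each sample is a separate animal is not stated in the labels, and the p-values below therefore cover only the spread among the 6 samples, which may be technical.

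Macrophages are phagocytes that survive on signals through the receptor CSF1R, which binds the growth factors CSF1 and IL-34. The kidney holds resident macrophages between its tubules, and monocytes from the blood add to them after injury. TREM2 is a lipid-sensing receptor of macrophages that has no signalling tail of its own and passes its signal through the adaptor TYROBP to the kinase SYK, and GPNMB is a membrane glycoprotein of lysosome-rich macrophages.

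Of the 10 genes, 9 passed the filter on low values (mean FPKM across all 6 samples no lower than 0.5) and 9 of these 9 rose on the adenine-enriched diet (limma, Benjamini-Hochberg adjusted p under 0.05), where 29.7% of the 15431 genes tested rose and 6.84% fell. Of the 9, 8 rose at least 4-fold on the log2(FPKM + 1) scale, as did 1.88% of all genes tested. Their log2 changes on the log2(FPKM + 1) scale ran from 1.28 for Csf1r to 3.78 for Lyz2, and the median log2 change of all genes tested was 0.25. In these 9 genes every adenine library was above every standard library, which held for 44.4% of all genes tested. Cd163 was below the filter, and its groups overlapped. Trem2 and Gpnmb passed the filter only through their adenine values, with standard means of 0.081 and 0.182 FPKM. A gene so low on the standard diet can pass only if it is higher on adenine. With no filter 9 of the 10 genes rose, as did 18.2% of 22768 genes. In whole tissue, more macrophages and more RNA per macrophage cannot be told apart.

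Depth, estimated from the steps between the lowest FPKM values, was about 17500000 to 23100000 fragments in the adenine libraries and 17400000 to 20500000 in the standard libraries. FPKM summed over all entries came to 600784 to 655170 in the adenine libraries and to 662282, 5661430 and 789871 in standard 1 to 3; standard 2 stood apart in this sum, and the 9 rises held without it. At the lowest depth 3 fragments on a 2 kb transcript come to 0.0957 FPKM, so differences below about this level were not detectable, and this limit covers counting error only. Scaling by median of ratios removes the shift common to all genes; with it 16.8% of genes rose and 9 of the 9 tested macrophage genes still did. The kidney segment markers used for comparison were present in all 6 libraries, among them the proximal tubule phosphate transporter Slc34a1 at 291, 492 and 734 FPKM in adenine 1 to 3 and 953, 1415 and 1327 FPKM in standard 1 to 3.

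**Figure D1:**
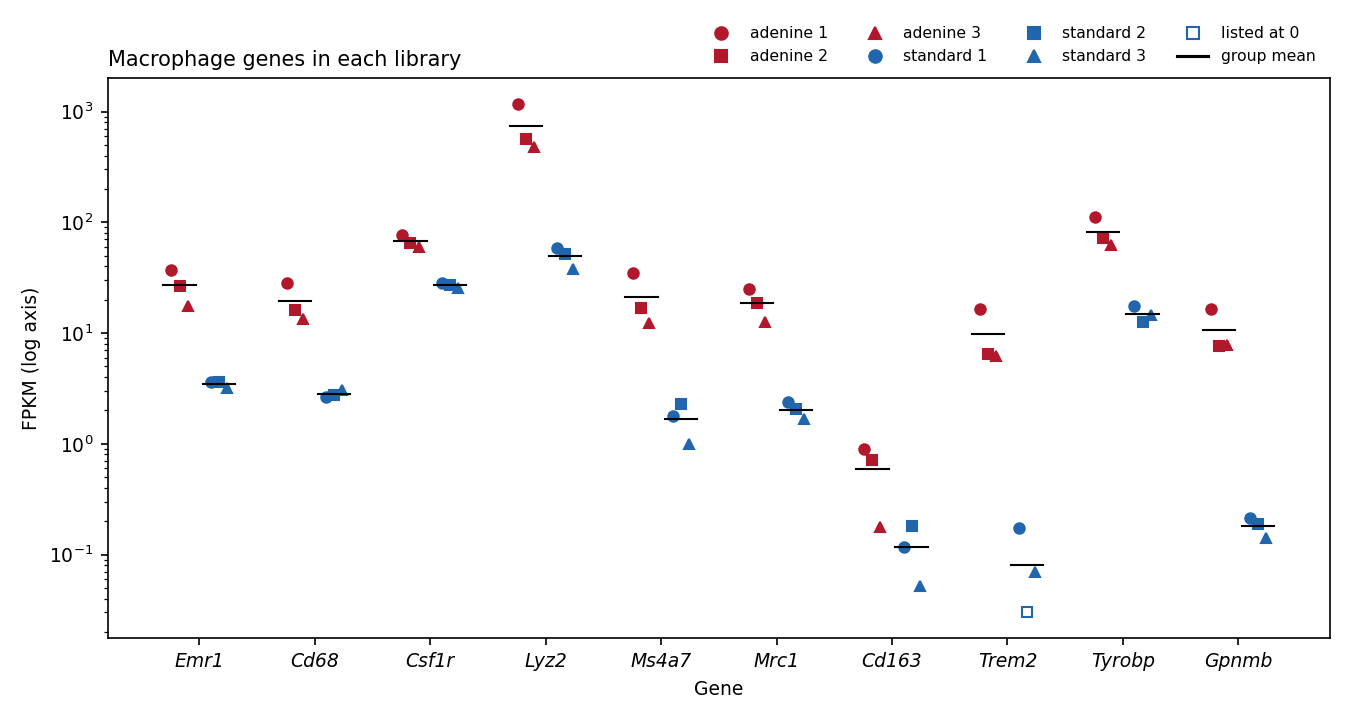
FPKM (log axis) of the 10 macrophage genes in each library, adenine libraries in red left of standard libraries in blue, with a bar at each group mean and an open symbol for a value listed at 0. The groups are apart for every gene except Cd163, and adenine 1 is the highest library for all 10 genes.

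Among the identity genes, Emr1, which encodes the adhesion receptor F4/80 that defines mouse tissue macrophages (chromosome 17, 57358686 to 57483529, plus strand, in the table's GRCm38 coordinates), was at 37.5, 26.5 and 17.5 FPKM in adenine 1 to 3 and at 3.58, 3.61 and 3.20 FPKM in standard 1 to 3. The adenine libraries differed among themselves by 2.14-fold, yet the lowest of them was still 4.85-fold above the highest standard library. The mean was 27.1 ± 9.99 FPKM on adenine and 3.46 ± 0.23 FPKM on the standard diet (SD, n = 3 each), a log2 change of 2.60 ± 0.26 (SE, limma adjusted p = 0.00361).

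Cd68, a lysosomal membrane glycoprotein of phagocytes (chromosome 11, 69664213 to 69666153, minus strand), was at 28.4, 16.3 and 13.4 FPKM in adenine 1 to 3 and at 2.63, 2.77 and 3.08 FPKM in standard 1 to 3. It rose 6.85-fold by the ratio of means (limma adjusted p = 0.0042). Emr1 and Cd68 kept a similar proportion to each other, with an Emr1 to Cd68 ratio of 1.32, 1.62 and 1.30 in adenine 1 to 3 and of 1.36, 1.31 and 1.04 in standard 1 to 3.

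Csf1r, the receptor for CSF1 and IL-34 (chromosome 18, 61105572 to 61132149, plus strand), was already abundant on the standard diet. It was at 77.2, 65.4 and 60.0 FPKM in adenine 1 to 3 and at 28.6, 27.2 and 25.7 FPKM in standard 1 to 3. Both groups were tight, and the rise of 2.49-fold was the smallest of the 9 tested genes (limma adjusted p = 0.00329). Of all genes tested, 7.4% had a larger log2 change than Csf1r. The end of Csf1r overlaps Hmgxb3 on the opposite strand by 871 bp in the table, and the library kit is not stated to keep strand, so some reads there could belong to either gene; Hmgxb3 averaged 9.07 FPKM on adenine and 7.68 FPKM on the standard diet.

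Lyz2, the lysozyme of macrophages and neutrophils (chromosome 10, 117277334 to 117282274, minus strand), was the most abundant of the 10 genes on both diets. It reached 1175, 559 and 482 FPKM in adenine 1 to 3, against 58.0, 51.7 and 38.1 FPKM in standard 1 to 3. Adenine 1 stood well above the other adenine libraries, and the lowest adenine library was 8.3-fold above the highest standard one. The log2 change was 3.78 ± 0.35 (SE, limma adjusted p = 0.00332), and 0.292% of genes tested had a larger one. Its close neighbour Lyz1, a near-identical lysozyme gene with which reads can be shared, was listed at 11.2, 4.39 and 4.09 FPKM in adenine 1 to 3 and at 0.40, 0.209 and 0.0524 FPKM in standard 1 to 3, so the split between the pair is uncertain.

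Ms4a7, a membrane protein of the MS4A family found on macrophages (chromosome 19, 11321039 to 11336146, minus strand), was at 34.8, 16.7 and 12.4 FPKM in adenine 1 to 3 and at 1.80, 2.27 and 0.995 FPKM in standard 1 to 3. It had the widest spread of the tested genes among the adenine libraries, 2.82-fold, and the largest SE (log2 change 2.95 ± 0.38, limma adjusted p = 0.00541). Its family members Ms4a6c and Ms4a6d were in the list of other pan-macrophage genes described below, and both rose.

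Of the pair of scavenger receptors, Mrc1 was past the threshold and Cd163 was too low to be tested, and the difference between their changes was not tested. Mrc1, the mannose receptor CD206 (chromosome 2, 14229414 to 14332057, plus strand), was at 24.8, 18.6 and 12.6 FPKM in adenine 1 to 3 and at 2.37, 2.05 and 1.67 FPKM in standard 1 to 3, a 9.18-fold rise (limma adjusted p = 0.00332). Cd163, the haemoglobin scavenger receptor of resident and anti-inflammatory macrophages (chromosome 6, 124304651 to 124330527, plus strand), stayed low in every library. It was at 0.898, 0.718 and 0.175 FPKM in adenine 1 to 3 and at 0.118, 0.18 and 0.0514 FPKM in standard 1 to 3.

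Adenine 1 and 2 lay above all 3 standard libraries for Cd163 and adenine 3 lay within their range. The ratio of means was 5.13-fold, from values near the detection limit on the standard diet. Tested with no filter on low values, Cd163 had a log2 change of 0.49 ± 0.18 (SE, limma adjusted p = 0.107), and in that fit 18.2% of 22768 genes rose.

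Trem2, the receptor, had the lowest mean of the 10 genes on the standard diet. Trem2 (chromosome 17, 48346401 to 48354147, plus strand) was at 16.5, 6.53 and 6.15 FPKM in adenine 1 to 3. In standard 1 to 3 it was listed at 0.174, 0 and 0.0692 FPKM, close to the detection limit, and a value listed at 0 can also be a failed estimate. The lowest adenine library was 35.4-fold above the highest standard library, and the limma adjusted p was 0.00419. The log2 change of 3.18 understates such a gene, and was 5.73 with a pseudocount of 0.1 in place of 1.

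Gpnmb (chromosome 6, 49036518 to 49058182, plus strand) had a similar low start. It was at 16.5, 7.64 and 7.86 FPKM in adenine 1 to 3 and at 0.216, 0.188 and 0.142 FPKM in standard 1 to 3. The lowest adenine library was 35.4-fold above the highest standard library (limma adjusted p = 0.00329), and the log2 change of 3.22 became 5.17 with a pseudocount of 0.1. On the adenine-enriched diet Trem2 and Gpnmb were at nearly the same level, with a Trem2 to Gpnmb ratio of 1.00, 0.854 and 0.783 in adenine 1 to 3.

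Tyrobp, the adaptor that carries an activation motif for SYK (chromosome 7, 30413788 to 30417577, plus strand), was at 111.3, 71.9 and 62.7 FPKM in adenine 1 to 3 and at 17.4, 12.5 and 14.7 FPKM in standard 1 to 3, a 5.52-fold rise (limma adjusted p = 0.00358). Adaptor and receptor changed by unequal amounts. The Trem2 to Tyrobp ratio was 0.148, 0.0909 and 0.0982 in adenine 1 to 3, against 0.00998, 0 and 0.00471 in standard 1 to 3. Tyrobp also serves other receptors of myeloid and natural killer cells.

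**Figure D2:**
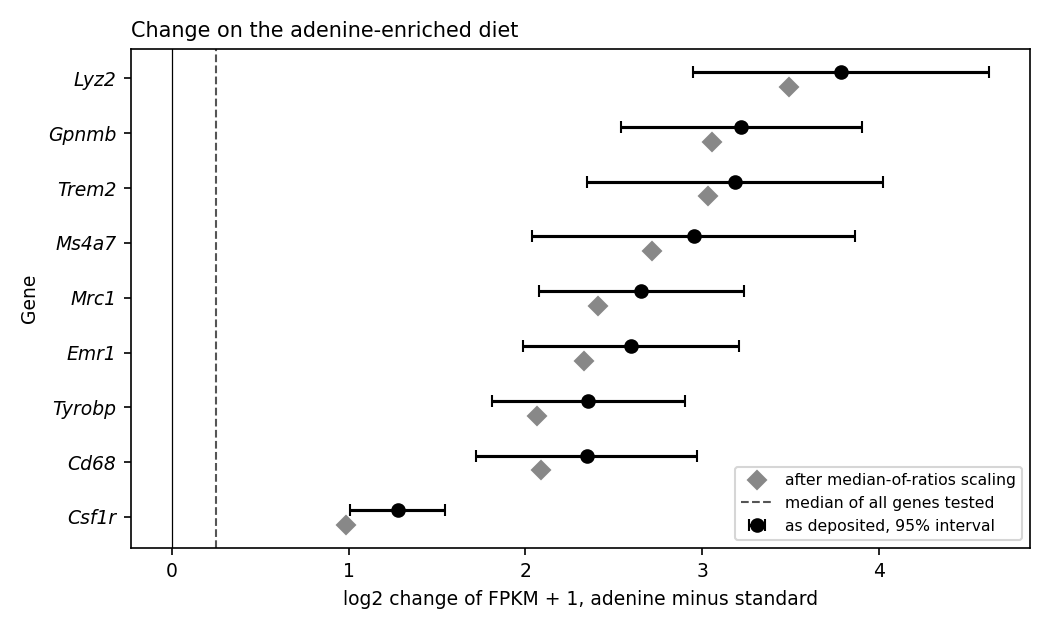
Log2 change of FPKM + 1, adenine minus standard, of the 9 tested macrophage genes, with 95% intervals from limma (black), the value after median-of-ratios scaling (grey) and the median of all genes tested (dashed line at 0.25). Csf1r, at 1.28, lies below the other 8 genes, which run from 2.35 to 3.78, and every gene stays above the dashed line after scaling.

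The order of levels within the set shifted with diet. On the adenine-enriched diet it ran Lyz2, Tyrobp, Csf1r, Emr1, Ms4a7, Cd68, Mrc1, Gpnmb, Trem2 and Cd163. On the standard diet it ran Lyz2, Csf1r, Tyrobp, Emr1, Cd68, Mrc1, Ms4a7, Gpnmb, Cd163 and Trem2. Tyrobp was above Csf1r in each adenine library, at a ratio of 1.44, 1.10 and 1.04, and below it in each standard library, at 0.609, 0.458 and 0.572. On adenine the neighbours Ms4a7, Cd68 and Mrc1, and likewise Gpnmb and Trem2, did not differ beyond their spread between libraries. The same held on the standard diet for Mrc1 and Ms4a7 and for Cd163 and Trem2, and Trem2 was above Cd163 in standard 1 and 3 and listed at 0 in standard 2.

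The promoter windows of Gpnmb and Trem2, the pair lowest on the standard diet among the tested genes, and of Mrc1 and Cd68 are shown because the 9 genes rose together. Windows of 250 bases before to 50 after the start site, from RefSeq (GRCm38.p6), were used for 7 of the 10 genes. Emr1, Csf1r and Tyrobp were not among them. Capitals mark matches on either strand to GAGGAA, the core of sites for PU.1 (encoded by Spi1). They also mark TGANTCA, a pattern wider than the AP-1 motif because N takes any letter. A further pattern, TCANGTG, likewise wider than the MITF and TFE family motif, had no match in these 4 windows. No matches overlap.
Gpnmb, chr6:49036268-49036567, plus strand: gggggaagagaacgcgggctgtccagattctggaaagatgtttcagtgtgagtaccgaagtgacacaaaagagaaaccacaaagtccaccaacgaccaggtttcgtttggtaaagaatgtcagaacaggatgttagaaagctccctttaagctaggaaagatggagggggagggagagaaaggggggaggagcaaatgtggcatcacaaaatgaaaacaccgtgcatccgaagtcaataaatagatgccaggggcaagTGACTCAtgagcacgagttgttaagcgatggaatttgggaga
Trem2, chr17:48346151-48346450, plus strand: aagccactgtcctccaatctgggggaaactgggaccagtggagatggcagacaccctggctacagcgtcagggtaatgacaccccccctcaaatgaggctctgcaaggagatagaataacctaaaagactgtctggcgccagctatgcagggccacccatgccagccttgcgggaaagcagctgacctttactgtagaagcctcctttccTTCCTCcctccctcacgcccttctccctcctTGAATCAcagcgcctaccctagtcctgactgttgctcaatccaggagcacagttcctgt
Mrc1, chr2:14229164-14229463, plus strand: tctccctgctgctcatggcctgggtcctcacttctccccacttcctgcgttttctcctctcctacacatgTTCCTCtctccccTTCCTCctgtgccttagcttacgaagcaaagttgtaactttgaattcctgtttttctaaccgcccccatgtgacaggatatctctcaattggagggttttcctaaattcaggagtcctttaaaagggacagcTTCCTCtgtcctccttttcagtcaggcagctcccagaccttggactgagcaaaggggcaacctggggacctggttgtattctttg
Cd68, chr11:69666121-69666420, minus strand: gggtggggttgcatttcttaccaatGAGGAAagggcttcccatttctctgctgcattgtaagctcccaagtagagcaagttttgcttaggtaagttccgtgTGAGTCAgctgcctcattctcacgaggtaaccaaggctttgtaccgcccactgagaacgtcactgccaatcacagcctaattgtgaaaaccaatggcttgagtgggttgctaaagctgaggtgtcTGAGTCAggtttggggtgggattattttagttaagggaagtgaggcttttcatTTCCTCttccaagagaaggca

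GAGGAA was present in a window of 4 of the 7 genes with a sequence (Cd68, Ms4a7, Mrc1 and Trem2) and in 28.3% of 32851 mouse promoter windows of the same length. TGANTCA was present in a window of 4 of the 7 (Cd68, Ms4a7, Trem2 and Gpnmb) and in 7.81% of all windows. The matches TGAGTCA in Cd68 and TGACTCA in Gpnmb have the letters of the AP-1 motif. Those in Ms4a7 (TGATTCA) and Trem2 (TGAATCA) do not. The share of 7.81% counts any letter at N, so the AP-1 motif itself has no background here. In Gpnmb the match began 8 bases after the start site and in Trem2 it began 9 bases before it. TCANGTG was present in windows of Lyz2 and Ms4a7 and in 14.3% of all windows. The window of Cd163 had no match to any of these patterns. The match in Lyz2, TCAAGTG, lacks the letters of the MITF and TFE motif. The motifs were chosen after the genes' values were known, and a match in letters is not evidence of binding.

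The libraries of the adenine group were ordered alike across the set. Adenine 1 was the highest adenine library for 10 of 10 genes, and adenine 3 the lowest for 9 of 10, the exception being Gpnmb. Among the 4581 genes that rose, adenine 1 was the highest for 80.3% and adenine 3 the lowest for 82.3%, so most rising genes had this order. The pan-leukocyte marker Ptprc, which encodes CD45, had it too, at 57.3, 27.0 and 21.3 FPKM in adenine 1 to 3 against 6.57, 5.87 and 6.68 FPKM in standard 1 to 3. The proximal tubule gene Slc34a1, given above, ran the other way. Whether tissue composition sets these differences was not tested. Leaving out adenine 1, the 9 genes still rose, and the same held on leaving out each other library (limma adjusted p of at most 0.0265).

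Ratios within a library hardly depend on its scaling where both genes are far above the small amount added to each. Trem2, Gpnmb and Cd163 on the standard diet are not, so their ratios do depend on it. Each of the other 9 genes was set against Csf1r as a log2 ratio with 0.1 FPKM added to both. For 8 of the 9 the groups did not overlap and the ratio was higher on adenine. The exact permutation test (two-sided, 20 splits) gave p = 0.1 for each of these 8, which is the smallest p that 3 against 3 allows (0.113 after adjustment over the 9 ratios), so the design cannot place them past 0.05. Of all genes tested, 12.9% rose more than Csf1r on this scale by their means. The share of all genes whose ratio to Csf1r did not overlap was not counted, so the non-overlap of the 8 has no background.

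The excess over Csf1r was largest for Trem2 and Gpnmb. The Trem2 ratio averaged -2.93 ± 0.61 on adenine and -7.35 ± 0.70 on the standard diet (SD, n = 3 each), a difference of 4.42, and that of Gpnmb differed by 3.86. Adding 1 FPKM in place of 0.1 brought these differences down to 1.91 and 1.94, since both genes are far below 1 FPKM on the standard diet. Lyz2 exceeded Csf1r by 2.50, Ms4a7 by 2.21, Mrc1 by 1.79, Emr1 by 1.56, Cd68 by 1.36 and Tyrobp by 1.12 log2 units. Cd163 differed by 0.23 (exact permutation p = 0.8), and by -0.79 with 1 FPKM added, where its groups did not overlap and the ratio was lower on adenine. Cd163 was below 1 FPKM in all 6 libraries, so with 1 FPKM added its own change is damped and the ratio mainly follows Csf1r.

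Against Ptprc in place of Csf1r the picture was narrower. Trem2 and Gpnmb were higher by 3.41 and 2.85 log2 units, Lyz2 by 1.49, Ms4a7 by 1.19, Mrc1 by 0.78, Emr1 by 0.55 and Cd68 by 0.35, with no overlap between the groups for these 7 genes. Tyrobp followed Ptprc, with a difference of 0.11 and overlapping groups (exact permutation p = 0.7), and Csf1r was lower relative to Ptprc by a difference of -1.01 with no overlap. CD45 is also made by lymphocytes, and the summed level of 4 B cell markers was 3.57 to 52.1 FPKM on adenine, highest in adenine 1, and 0.757 to 4.52 FPKM on the standard diet; the part of these cells in the ratios to Ptprc was not tested. For Csf1r the log2 ratio to Ptprc was 0.43, 1.27 and 1.49 in adenine 1 to 3 and 2.104, 2.20 and 1.93 in standard 1 to 3. On this scale 4.81% of all genes tested rose more than Ptprc by their means. The share of all genes whose ratio to Ptprc did not overlap was not counted.

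**Figure D3:**
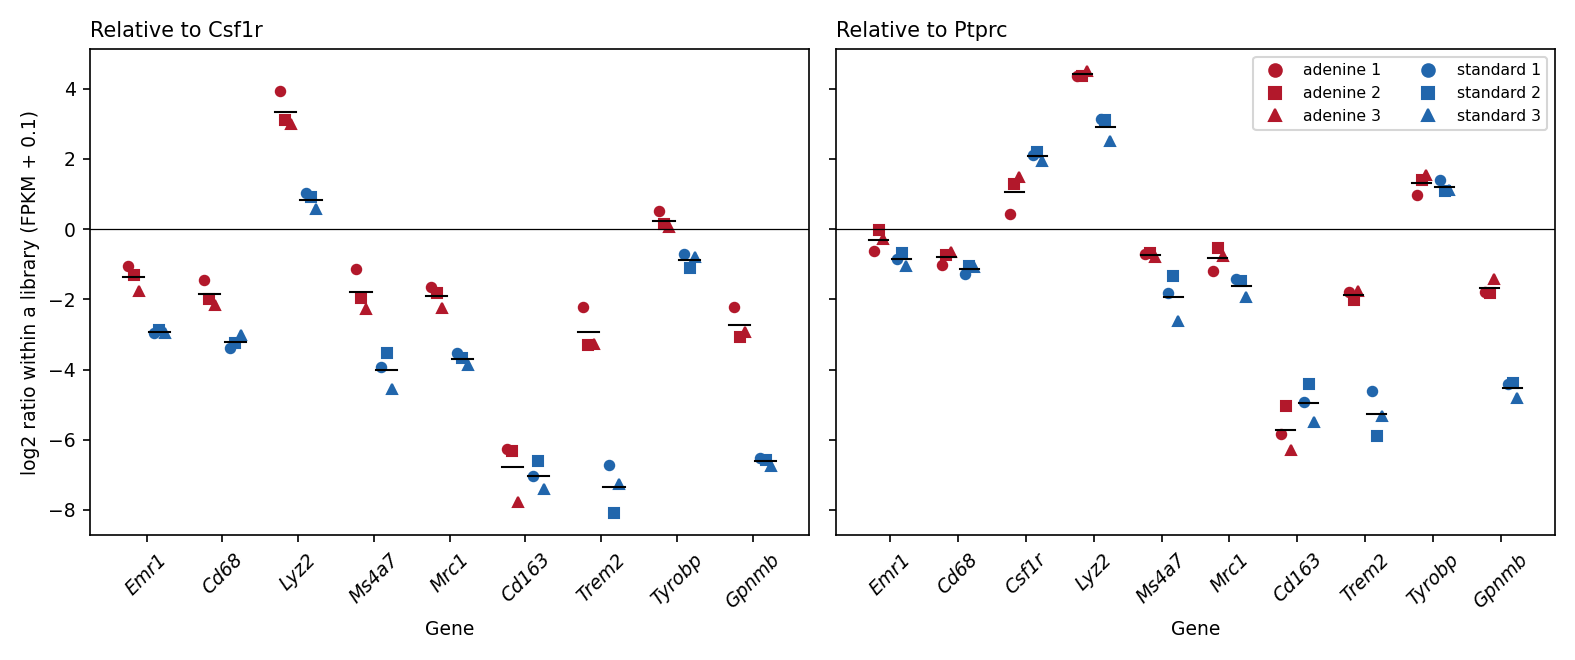
Log2 ratio of each macrophage gene to Csf1r (left panel) and to Ptprc (right panel) within each library, with 0.1 FPKM added, adenine in red left of standard in blue and bars at group means. Trem2 and Gpnmb show the widest gaps in both panels, Tyrobp overlaps between diets against Ptprc, and Csf1r is lower on adenine against Ptprc.

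The growth factors of the lineage rose with the set. Beside the counts of this and the following lists stand the shares over all genes tested, of which 29.7% rose and 6.84% fell. Csf1 was at 25.3, 19.8 and 12.6 FPKM in adenine 1 to 3 and at 5.13, 4.29 and 3.92 FPKM in standard 1 to 3 (limma adjusted p = 0.00569). Il34, which tubular epithelium can make, was at 121, 118 and 111 FPKM in adenine 1 to 3 and at 44.9, 64.9 and 60.5 FPKM in standard 1 to 3 (limma adjusted p = 0.00629). Il34 was the more abundant of the CSF1R ligands on both diets, while Csf1 rose more, 4.32-fold against 2.06-fold. Csf2, which encodes GM-CSF, was below the filter, at 0.0945 to 0.21 FPKM on adenine and listed at 0 in all 3 standard libraries. All 5 tested genes of this list rose, and on the log2(FPKM + 1) scale the GM-CSF receptor chains Csf2rb and Csf2ra led, at 2.19 and 2.08. By the ratio of means the G-CSF receptor gene Csf3r, named after its values were seen, was ahead of them at 11.4-fold, against 8.99-fold for Csf2rb and 5.04-fold for Csf2ra.

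Of 11 tested lineage transcription factors, 7 rose and 0 fell, with a median log2 change of 0.66; with the replicate number as a block 7 rose and 1 fell, the oxysterol receptor gene Nr1h3 (log2 change -0.38, limma adjusted p = 0.0362). Spi1, which encodes the master regulator PU.1, was at 24.8, 17.0 and 11.6 FPKM in adenine 1 to 3 and at 3.41, 1.94 and 2.84 FPKM in standard 1 to 3, a log2 change of 2.29 (limma adjusted p = 0.00508). Runx1, a haematopoietic factor, changed by 2.29 as well. Cebpb rose by 1.00 (limma adjusted p = 0.0352, but 0.0683 with median-of-ratios scaling, 0.168 with quantile normalization, and 0.0788 to 0.113 without adenine 1, adenine 2, standard 2 or standard 3). Maf, a factor active in tissue macrophages, was at 24.2 ± 0.88 FPKM on adenine and 26.5 ± 0.80 FPKM on the standard diet (limma adjusted p = 0.239), and fell after median-of-ratios scaling (log2 change -0.41, adjusted p = 0.0234). The cells that held the Maf RNA in whole kidney were not tested for. Mitf and Tfec, members of the family that includes regulators of lysosome genes, had log2 changes of 0.31 and -0.19 (limma adjusted p = 0.192 and 0.408). The 7 rises became 5 rises with 2 falls after median-of-ratios scaling, 3 rises without adenine 2, and 4 without standard 2 or standard 3. Rises over all genes dropped too, from 4581 of 15431 to 2598 after median-of-ratios scaling and to 1888 of 15369 without adenine 2.

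Among receptors and signalling proteins that work with TYROBP, 8 of 9 tested genes rose, with a median log2 change of 1.47. These 8 rises became 6 with quantile normalization and without standard 1 or standard 3, and fewer of all genes rose in these fits too. The guanine exchange factor Vav1 and the Fc receptor chain Fcer1g led at 2.35 and 2.30, and Fcer1g was at 86.6, 60.7 and 42.1 FPKM in adenine 1 to 3 and at 12.3, 12.2 and 10.2 FPKM in standard 1 to 3. The kinase gene Syk was 6.28-fold higher on adenine (limma adjusted p = 0.0127). Hcst, the adaptor DAP10, was at 6.68, 3.21 and 1.12 FPKM in adenine 1 to 3 and at 0.733, 1.69 and 0.576 FPKM in standard 1 to 3, with overlapping groups (limma adjusted p = 0.114, and 0.0186 without adenine 3). Of the other TREM receptors, Trem1 was at 0.0926 to 0.91 FPKM on adenine and 0.0182 to 0.0454 FPKM on the standard diet, and Trem3 at 0.0735 to 0.277 FPKM on adenine and at 0 in all 3 standard libraries. Both were below the filter, so among the TREM receptors listed Trem2 was the one at more than 1 FPKM.

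Other pan-macrophage genes changed about as much as the set. Of 16 tested, 15 rose, with a median log2 change of 2.60, and the 15 rises held after median-of-ratios scaling. The complement gene C1qa was at 165, 103 and 70.8 FPKM in adenine 1 to 3 and at 13.2, 11.2 and 11.6 FPKM in standard 1 to 3, and the protease gene Ctss had the next largest log2 change, 3.03. The fractalkine receptor Cx3cr1 averaged 24.3 ± 9.70 FPKM on adenine and 2.28 ± 0.80 FPKM on the standard diet (SD, n = 3 each, limma adjusted p = 0.00445). The exception was Mertk, a receptor for engulfing dead cells, at 17.0 ± 1.54 FPKM on adenine and 16.9 ± 1.44 FPKM on the standard diet (log2 change 0.01, limma adjusted p = 0.973). Which cells of the whole kidney held the Mertk RNA was not tested.

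In the list of resident and alternative activation genes, 8 of 9 tested rose (median log2 change 1.42), and 6 of 15 were below the filter. The scavenger receptor Msr1 and the platelet factor gene Pf4 led, at log2 changes of 2.11 and 2.00. Msr1 averaged 0.355 FPKM on the standard diet, so it could be tested only if higher on adenine. Retnla, a gene of interleukin-4-activated mouse macrophages, was at 3.33, 3.93 and 2.92 FPKM in adenine 1 to 3 and at 0.147, 0.172 and 0 FPKM in standard 1 to 3 (limma adjusted p = 0.00296). Arg1 was lower still, at 2.099, 1.40 and 0.406 FPKM in adenine 1 to 3 and at 0.0339, 0 and 0.0399 FPKM in standard 1 to 3 (limma adjusted p = 0.0298, and 0.078 to 0.0951 without adenine 2 or any 1 standard library). The scavenger receptor Stab1, named after its values were seen, rose to 33.4 FPKM on adenine against 8.87 FPKM on the standard diet (limma adjusted p = 0.00412), and Cbr2, a carbonyl reductase gene named likewise, was at 4.398 FPKM on adenine and 2.51 FPKM on the standard diet (limma adjusted p = 0.017, 0.0871 with median-of-ratios scaling). Folr2, Lyve1 and Timd4 averaged below 1 FPKM on both diets. Folr2 averaged 0.85 FPKM on adenine and 0.793 FPKM on the standard diet (limma adjusted p = 0.794), Lyve1 was at 0.342 to 0.798 FPKM on adenine and 0.188 to 0.23 FPKM on the standard diet, and Timd4 reached 0.199 FPKM on adenine and was listed at 0 in all 3 standard libraries. Without adenine 2, standard 1 or standard 2 the 8 rises of this list became 5, and fewer of all genes rose in these fits too.

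Of 11 tested inflammatory activation genes, 8 rose (median log2 change 1.13), led by the chemokine gene Ccl2 at 2.80 and the arginine transporter gene Slc7a2 at 2.35. Il1b was at 12.4, 12.96 and 6.53 FPKM in adenine 1 to 3 and at 1.35, 1.37 and 2.76 FPKM in standard 1 to 3 (limma adjusted p = 0.00722). Tnf was at 2.82, 1.46 and 0.816 FPKM in adenine 1 to 3 and at 0.21, 0.121 and 0.203 FPKM in standard 1 to 3 (limma adjusted p = 0.0229, and 0.0636 to 0.06998 without adenine 2 or any 1 standard library). Nos2, the inducible nitric oxide synthase, averaged 1.08 FPKM on adenine and 0.361 FPKM on the standard diet and lay at the threshold (limma adjusted p = 0.0505). A block for the replicate number placed it past the threshold (0.0477), and it was also called with pseudocounts of 0.1 and 0.5, without the intensity trend, with a robust variance prior and without adenine 3 (adjusted p of 0.0145 to 0.0468 in the last 5). With median-of-ratios scaling or no filter Nos2 was not called (limma adjusted p = 0.0744 and 0.053). Without adenine 2, standard 1 or standard 2 the 8 rises became 4, and 5 without adenine 1 or standard 3. Fewer of all genes rose in these fits too, among them 2480 of 15468 without standard 1 and 2966 of 15177 without adenine 1.

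Lipid-handling and lysosomal genes moved both ways: 9 of 16 rose and 2 fell, with a median log2 change of 0.64. Spp1 and Apoe, which injured tubules and macrophages both make, led at log2 changes of 3.87 and 3.01, and Apoe was at 2200.0, 1239 and 1029 FPKM in adenine 1 to 3 and at 192, 171 and 161 FPKM in standard 1 to 3. Lgals3, which encodes galectin-3, was 4.02-fold higher on adenine (limma adjusted p = 0.00405). Lpl, a lipase, and Cd36, a fatty acid transporter, fell by 1.18 and 1.05 on the log2 scale, to 139 and 122 FPKM on adenine against 296 and 240.0 FPKM on the standard diet (limma adjusted p = 0.0361 and 0.029). Both falls ended with quantile normalization, with no filter, and without adenine 2 or any 1 standard library (limma adjusted p of 0.05004 to 0.104). Whether the RNA of Lpl and Cd36 lay in macrophages or in other kidney cells was not tested.

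**Figure D4:**
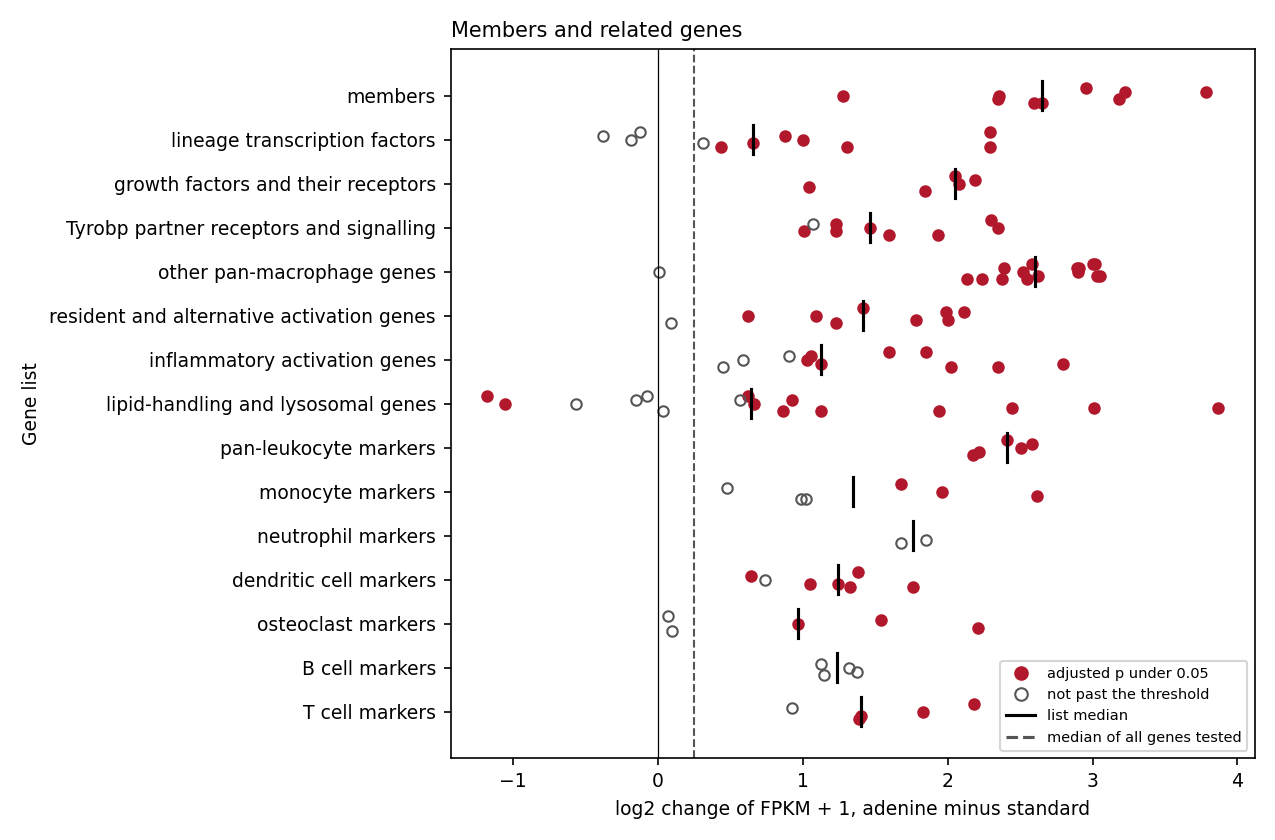
Log2 change of FPKM + 1, adenine minus standard, of each tested gene in 15 lists, with filled points for adjusted p under 0.05, a bar at each list median and a dashed line at the median of all genes tested (0.25). The macrophage, pan-macrophage and pan-leukocyte lists lie furthest to the right, and the lipid-handling list spans both sides of 0.

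Several of these genes are shared with other leukocytes, so markers of those cells were read beside them. All 5 pan-leukocyte genes rose, led by Coro1a and Laptm5 at log2 changes of 2.59 and 2.50, and Ptprc rose by 2.17. Of 6 monocyte markers 3 rose, the chemokine receptor Ccr2 by 2.61 (41.6, 33.8 and 16.8 FPKM in adenine 1 to 3, against 4.81, 3.81 and 3.11 FPKM in standard 1 to 3) and Plac8 by 1.96. The summed level of the monocyte list was 85.7 to 199 FPKM on adenine and 31.1 to 36.7 FPKM on the standard diet.

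Neutrophils also make lysozyme. Of 10 neutrophil markers 2 passed the filter and neither was called (limma, 0 called and 2 at an unadjusted p under 0.05, and 2 called without adenine 3 or without standard 3). S100a8 was at 15.5, 18.0 and 5.15 FPKM in adenine 1 to 3 and at 1.77, 1.68 and 6.90 FPKM in standard 1 to 3, with overlapping groups (limma adjusted p = 0.0591, 0.0189 without adenine 3 and 0.0417 without standard 3). The defining marker Ly6g was at 0.127, 0.0609 and 0 FPKM in adenine 1 to 3 and at 0 in the 3 standard libraries, and Elane was at 0 in all 6. Cxcr2, a chemokine receptor gene below the filter and named after its values were seen, was at 0.618, 1.14 and 0.38 FPKM in adenine 1 to 3 and at 0.052, 0 and 0 FPKM in standard 1 to 3, without overlap, and was called with no filter (limma adjusted p = 0.0287). The list summed to 9.18 to 33.7 FPKM on adenine and 2.53 to 13.02 FPKM on the standard diet.

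Of 7 dendritic cell markers 6 rose, by up to 1.76 for Ccr7 and 1.38 for Cd209a. The 7 summed to 18.4 to 36.3 FPKM on adenine and 7.86 to 9.43 FPKM on the standard diet. Ccr7, Flt3, Xcr1 and Itgae averaged below 0.5 FPKM on the standard diet, so they could be tested only if higher on adenine. The 6 dendritic cell rises became 4 with quantile normalization and without adenine 2 or standard 3, and 5 without standard 1 or standard 2. Of 5 T cell markers 4 rose, with Cd4 at 2.18 and Cd3g at 1.83. The 5 summed to 12.7 to 46.5 FPKM on adenine and 2.45 to 3.67 FPKM on the standard diet. The 4 T cell rises became 2 after median-of-ratios scaling. They became 1 with quantile normalization, with no filter, and without adenine 2 or any 1 standard library. Fewer of all genes rose in these fits too. None of 4 B cell markers was called (limma, 0 at an unadjusted p under 0.05), and Ms4a1, a marker chosen after its values were seen, was at 10.4, 0.264 and 0.326 FPKM in adenine 1 to 3 and at 0.502, 0.106 and 0.114 FPKM in standard 1 to 3. The part of these cells in the levels of the shared genes Tyrobp, Lyz2, Cd68 and Mrc1 was not tested.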

How the data were processed

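RNA was sequenced from whole kidneys of 6 samples, per the labels' protocols with the TruSeq RNA kit and paired-end reads on a HiSeq2500. Tools named in the submitters' processing notes are bcl2fastq 2.0, TopHat and Cufflinks 2.1.1, with the builds mm10 and GRCm38; no annotation version is stated in those notes. Per the file headers, values deposited by the authors are FPKM, with 1 column per sample, which was matched by diet and number. The 6 value columns of a second table match no listed sample and were not used.

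Library depth came from the spacing of low FPKM values among single-transcript genes, with an assumed fragment of 200 bp; between 72.1% and 78.8% of such values per library were whole multiples to within 0.15, too few for a count test. The diets were compared with limma 3.58.1 in R 4.3.3 (two-sided, with its intensity trend) using log2(FPKM + 1) of the 15431 genes whose mean reached 0.5 FPKM, adjusted by Benjamini-Hochberg over all of them, with a threshold of 0.05. That mean covers both diets, so a gene low on the standard diet can pass through its adenine values. Retnla, Arg1 and Tnf did so, as did other genes of the lists, among them Csf3r, Cd300lb, Lyz1, Msr1, Flt3, Mmp9 and Calcr. The code was tested on simulated data. Log2 changes on this scale understate those of low genes; folds are ratios of mean FPKM. Ratios to Csf1r and Ptprc used FPKM + 0.1 and an exact permutation test. Replicate numbers are shared between diets. Deviations from group means correlated at 0.257, 0.143 and 0.181 for equal numbers and at -0.187 to 0.038 for unequal ones. With 3 samples per group these correlations are not independent of each other. A pairing by number is thus possible, but no label states it. The main fit left pairing out, and a block for the replicate number was run as an alternative. The genes and lists (139 of 140 related genes in the table) were chosen with earlier results of these data known. Named are all 10 members, a fixed set of related genes, and the largest changes of each list (at most 2 per direction); others are named where a rule asks, and 1 gene of the fixed set is not reported here. Alternatives were the pseudocount, filter, scaling, variance prior, replicate block and omission of each library.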

Additional observations from a re-analysis of the deposited data

How the results depend on the processing

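The 9 rises of the tested macrophage genes held in every alternative that tested all 9 (pseudocounts of 0.1 and 0.5, no filter, median-of-ratios scaling, quantile normalization, no variance trend, a robust variance prior, replicate block, and block with median-of-ratios scaling), with 9 to 9 rises on leaving out 1 library. With a mean of at least 5 FPKM required, 8 genes were tested and 8 rose, since Trem2 fell below the filter. Adjusted p over the alternatives was at most 0.0265. Among related genes 87 of 118 tested changed, 82 up and 5 down. With the filter at 5 FPKM the count was 56 of 74 tested, and it was 63 to 96 on leaving out 1 library. Over all genes 5637 changed, and 2119 to 7046 on leaving out 1 library (2119 without adenine 2, 3609 without adenine 1, 2915, 2929 and 2789 without standard 1, 2 and 3, and 7046 without adenine 3). With the replicate number as a block, 5957 genes, 9 macrophage genes and 89 related genes changed, and beyond Nos2 the block changed the call of Nr1h3 (log2 change -0.38, adjusted p = 0.0362). Members higher relative to Csf1r numbered 9 of 9 by their means, and 8 to 9 on leaving out 1 library, 8 with 1 FPKM added, where Cd163 was the exception; against Ptprc 8 of 10 were higher, the exceptions being Csf1r and Cd163. Depth limits Trem2, Gpnmb and Cd163 on the standard diet, whose values lie near the level of a few fragments.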

Other observations

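Some genes known from osteoclasts, the bone-resorbing relatives of macrophages, rose in the kidney while others did not. Of 7 osteoclast markers 5 were tested and 3 rose. Ctsk, which encodes the collagen-degrading protease cathepsin K, was at 35.5, 21.9 and 16.6 FPKM in adenine 1 to 3 and at 5.15, 4.44 and 3.41 FPKM in standard 1 to 3 (log2 change 2.21, limma adjusted p = 0.00508). The gelatinase gene Mmp9 rose by 1.54, and Calcr, the calcitonin receptor, chosen after its values were seen, rose by 0.97 (limma adjusted p = 0.00598 and 0.0119). Both averaged below 0.5 FPKM on the standard diet, so they could be tested only if higher on adenine. Acp5, the tartrate-resistant acid phosphatase, was at 26.4, 22.6 and 27.4 FPKM in adenine 1 to 3 and at 22.1, 25.0 and 24.0 FPKM in standard 1 to 3, with overlapping groups (limma adjusted p = 0.473).

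Of the 7 kidney segment markers, the podocyte gene Nphs1 rose, at 11.2, 8.06 and 10.3 FPKM in adenine 1 to 3 and 5.44, 4.67 and 5.76 FPKM in standard 1 to 3, and 3 fell. Slc34a1 fell by 1.36 and the endocytic receptor gene Lrp2 by 0.87 on the log2 scale, and Slc12a1, a salt transporter gene named after its values were seen, by 0.72. None of these 3 falls was called without adenine 2, without any 1 standard library or with quantile normalization (limma adjusted p of 0.0532 to 0.141), and quantile normalization also ended the rise of Nphs1 (log2 change 0.35, adjusted p = 0.138).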
